A study of Mus musculus with 16 samples.

Results

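Tip cells lead the sprouts of growing blood vessels, and VEGF-A, the main vessel growth factor, drives their formation through its receptor Kdr on endothelial cells. The ligand Dll4, which tip cells carry, acts on Notch receptors of the neighbouring stalk cells and restrains sprouting there. In the mouse retina the vessels spread from the optic nerve after birth, so that sprouting fronts are present in the pup. The 10 genes described here were chosen as a set of tip cell genes and of genes that VEGF-A induces in endothelial cells. They are Esm1, Apln, Pdgfb, Stc1, Aplnr (the receptor of Apln), Cxcr4, Kcne3, Rcan1, Rnd1 and Hlx. All probes that carry the current or an older symbol of these genes were taken, which gave 27 probes of 43426 on the array and 10 genes of 25695.

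C57Bl6 mouse pups were injected in the eye and their retinas collected 24 h later. The groups were VEGF-A (5 arrays, 1 µg), Dll4-Fc (4 arrays, 4 µg), VEGF Trap (3 arrays) and hFc (4 arrays, 4 µg), with pups injected at 8 days. The labels give no dose or age for VEGF Trap. Dll4-Fc and hFc were given at equal doses, and in every other comparison the doses are unequal or unknown. VEGF Trap is a soluble decoy receptor that binds VEGF-A, Dll4-Fc is a soluble form of Dll4 joined to an Fc part, and hFc, the Fc part alone, was the control. Every array set a sample in Cy3 against 1 pool of the RNA of the whole experiment in Cy5, with no dye swap, and values below are log2 of sample over pool unless stated otherwise. A value of 0 is thus the level of the pool, which holds the treated samples too, and only differences between groups are compared.

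Slide 1 held the hFc arrays and slide 2 the Dll4-Fc arrays, so for both groups slide and group cannot be told apart. VEGF-A and VEGF Trap shared slides 3 and 4. The hFc arrays also had 2350 to 2599 outlier spots each, against 12 to 213 on the other arrays. Of the Cy3 spots of an array, 84.9 to 91.0% were well above background, and no Cy3 spot was saturated. Whether each sample was a separate animal is not stated, and the p-values thus measure only how far these samples spread, which may be technical. Of 18 pan-endothelial markers, all 18 were well above background on all 16 arrays, so endothelial RNA was present in every sample.

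Each probe is named by its gene and a letter, with a for the brightest probe, here called the leading probe. The 27 probes held 24 distinct sequences, since 3 sequences were each placed on the array under 2 probe names. The probes shown next are those whose repeat or near-repeat bears on how far a value can be trusted, together with the probes of Kcne3 and Aplnr, which moved in opposite directions after VEGF-A. Each is written 5′ to 3′ as in the scanner files. Probes Esm1 c and Esm1 d have the same sequence, as do Apln d and Apln e. In Kcne3 a the capitals mark the letters TGA that end the probe, a stop codon in the sole frame of the probe that holds no earlier one. Cxcr4 b starts 6 bases upstream of Cxcr4 a and shares 54 bases with it at 1 difference, G38A, from Cxcr4 a to Cxcr4 b with positions counted from 1 at the 5′ end of Cxcr4 a, and the capital in each marks that base.
Esm1 c: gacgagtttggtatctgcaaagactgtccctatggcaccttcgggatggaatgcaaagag
Apln d: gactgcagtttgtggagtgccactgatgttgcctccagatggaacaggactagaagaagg
Kcne3 a: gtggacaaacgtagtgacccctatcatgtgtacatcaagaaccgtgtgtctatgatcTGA
Aplnr b: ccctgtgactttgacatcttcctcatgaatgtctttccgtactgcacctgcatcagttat
Cxcr4 a: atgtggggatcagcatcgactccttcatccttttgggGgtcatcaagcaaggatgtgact
Cxcr4 b: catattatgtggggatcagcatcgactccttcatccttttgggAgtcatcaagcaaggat

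Repeats of 1 sequence differed by a root mean square of 0.11 for Apln d and e and of 0.13 for Kcne3 b and c over the 16 arrays, on the log2 scale. Cxcr4 a and b, despite the changed base, differed by 0.034. Esm1 c and d, which share every base, differed by 0.66 and by up to 1.62 on VEGF Trap 2. Esm1 c and d were dim outside the VEGF-A group, with Cy3 processed signals of 14.1 to 63.3 on those arrays against 1159 to 1645 on VEGF-A arrays. Of the pairs set side by side here, Esm1 c and d were the least repeatable, on the arrays where they read far below the pool.

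After VEGF-A, 19 of 25 tested member probes rose against hFc, 3 fell and 3 did not pass the test. The share of all 38887 probes called was 8.99%, of which 5.68% rose and 3.3% fell. On leading probes, 7 of 9 genes rose (Esm1, Kcne3, Apln, Pdgfb, Hlx, Rnd1 and Stc1), Cxcr4 fell and Rcan1 did not pass. The calls of Rnd1 a and Cxcr4 a were lost in 7 and 10 of 20 alternative runs. The median log2 change over the 25 probes was 1.95, against −0.04 over all probes. A gene was called at a Benjamini-Hochberg adjusted p under 0.05 in limma, adjusted over all probes. Groups did not overlap for 23 member probes, where 14.9% of all probes had groups that did not overlap. The members were chosen as tip cell genes or genes known to respond to VEGF-A, and with earlier results of these data known. Their count thus describes this set alone.

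**Figure D1:**
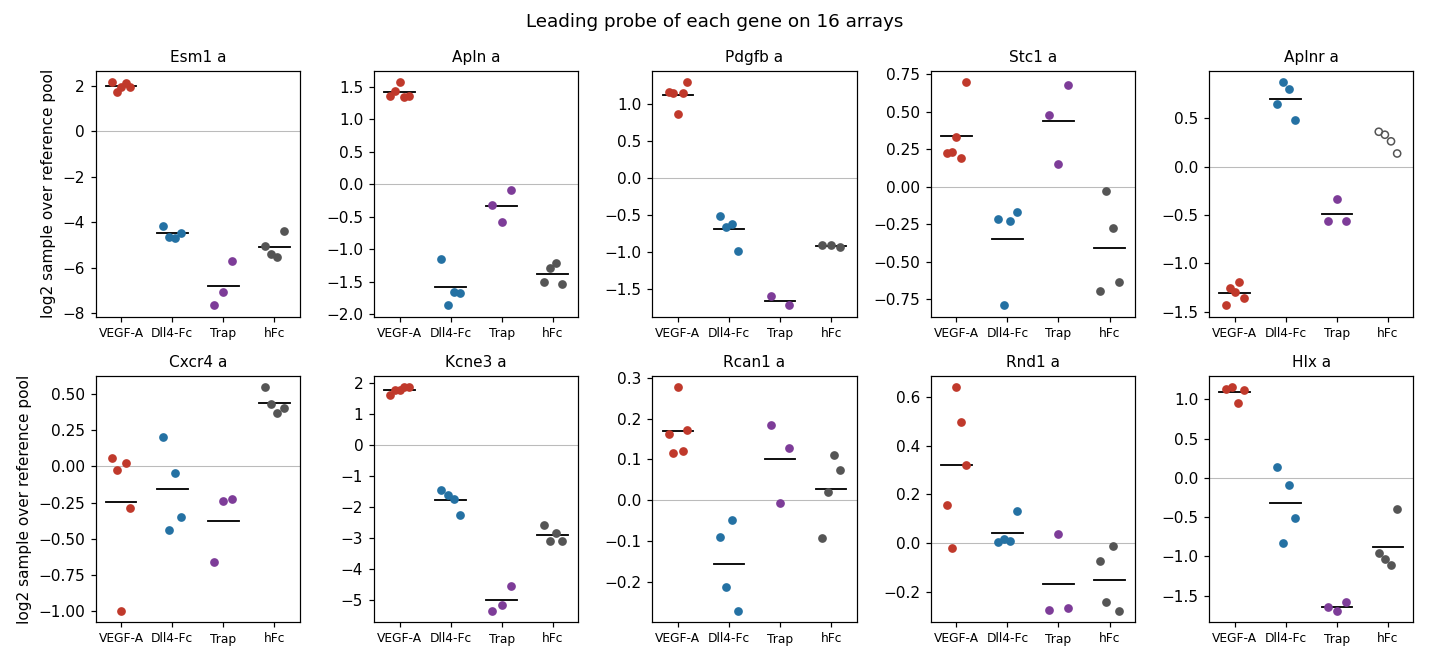
Log2 of sample over reference pool (y axis, own scale in each panel) for the leading probe of each gene on every array, by group (x axis, with Trap for VEGF Trap). Points are arrays and bars are group means, and the open points of Aplnr a are hFc spots marked as outliers and left out of the tests. The VEGF-A arrays of Esm1, Kcne3, Apln, Pdgfb and Hlx lie above all other arrays.

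Esm1 encodes endocan, a proteoglycan that endothelial tip cells secrete. Esm1 a read 2.17, 1.75, 1.96, 2.11 and 1.96 on the VEGF-A arrays and −4.14, −4.62, −4.68 and −4.47 on the Dll4-Fc arrays. It read −7.65, −7.04 and −5.68 on the VEGF Trap arrays and −5.04, −5.37, −5.53 and −4.38 on the hFc arrays. The VEGF-A arrays stood alone, above the pool, and the VEGF Trap arrays lay below all hFc arrays. In scanner units the Cy3 processed signal of Esm1 a was 13510 to 16965 on VEGF-A arrays and 52.5 to 136 on hFc arrays. The log2 change after VEGF-A was 7.07 ± 0.31 (SE), or 135-fold, at an adjusted p of 7.99e-10. Its other probes gave log2 changes of 7.16, 5.16 and 5.45, all called, so the fold depended on the probe, from 35.8 to 143. After VEGF Trap, Esm1 a fell by 1.71 on the log2 scale (adjusted p = 0.0241), with Esm1 b at −1.65 (0.0714), Esm1 c at −0.21 and Esm1 d at −0.39, none of the last 3 called. With VEGF Trap 3 as the only VEGF Trap array, as on slide 4, the change of Esm1 a was −0.60, a value from 1 array. The call was also lost without VEGF Trap 1 (adjusted p = 0.133). Whether dim spots on the VEGF Trap arrays limit the values of Esm1 a was not tested. Esm1 a was not called after Dll4-Fc, at 0.60 ± 0.33 (adjusted p = 0.512), with groups that overlapped.

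Upstream bases of the genes that rose most and have an entry in the RefSeq table of promoters (GRCm38.p6) are given here for reference, 250 bases before the start of the transcript, on the strand of the gene. Capitals mark the letters GGAA or their reverse complement, the core that ETS factors bind. Of the 10 genes, 6 had an entry, with 8 starts in all.
Esm1, chr13:113209409-113209658, plus strand: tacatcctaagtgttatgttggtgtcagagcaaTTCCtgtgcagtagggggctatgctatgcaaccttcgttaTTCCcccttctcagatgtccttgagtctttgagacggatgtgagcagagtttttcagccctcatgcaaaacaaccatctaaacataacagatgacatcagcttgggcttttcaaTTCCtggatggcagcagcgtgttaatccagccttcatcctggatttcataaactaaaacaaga
Kcne3, chr7:100176420-100176669, plus strand: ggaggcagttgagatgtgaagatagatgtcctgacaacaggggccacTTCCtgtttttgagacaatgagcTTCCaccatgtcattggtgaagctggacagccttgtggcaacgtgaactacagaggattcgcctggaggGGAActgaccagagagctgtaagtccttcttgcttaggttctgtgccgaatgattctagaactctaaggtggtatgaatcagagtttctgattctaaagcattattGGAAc
Apln, chrX:48034854-48035103, minus strand: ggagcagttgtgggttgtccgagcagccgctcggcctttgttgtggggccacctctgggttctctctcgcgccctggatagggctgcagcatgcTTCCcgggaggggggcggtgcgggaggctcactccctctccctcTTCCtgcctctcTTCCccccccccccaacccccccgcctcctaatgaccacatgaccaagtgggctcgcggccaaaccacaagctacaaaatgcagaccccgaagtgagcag

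The GGAA core, read on both strands and including its occurrences within GGAAA, was found 3 times upstream of Esm1, 4 times at the Kcne3 start shown and 3 times upstream of Apln. Of 32851 promoters of the table, 93.4% held it at least once within 250 bases, with a median of 3, so the members were near the background. The AP-1 letters TGANTCA were found once at that Kcne3 start, in no window of Esm1 or Apln, and in 6.75% of all promoters.

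Apln encodes apelin, a peptide that tip cells secrete and that acts on the receptor Aplnr. On the VEGF-A arrays Apln a read 1.35, 1.43, 1.57, 1.35 and 1.36, and on the Dll4-Fc arrays −1.15, −1.86, −1.65 and −1.67. On the VEGF Trap arrays it read −0.32, −0.58 and −0.08, and on the hFc arrays −1.51, −1.29, −1.21 and −1.53. Both the VEGF-A and the VEGF Trap arrays lay above all hFc arrays, with VEGF-A the higher, while Dll4-Fc and hFc overlapped. Apln a rose by 2.80 ± 0.13 (log2, 6.95-fold) after VEGF-A (adjusted p = 1.70e-09) and by 1.06 ± 0.15 (2.08-fold) after VEGF Trap (adjusted p = 0.00254). The other 4 probes rose after VEGF-A as well, by 2.74, 2.81, 1.93 and 1.95. After VEGF Trap, Apln b and c rose by 0.87 and 1.02, and Apln d and e read 0.59 (adjusted p = 0.107) and 0.49 (0.217). VEGF-A and VEGF Trap are thus both on the higher side of hFc for this gene, and both comparisons share the hFc arrays of slide 1. The share of slide 1 in that rise was not tested. In the direct comparison of VEGF-A with VEGF Trap, Apln a was 1.74 ± 0.15 higher (adjusted p = 5.66e-07).

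**Figure D2:**
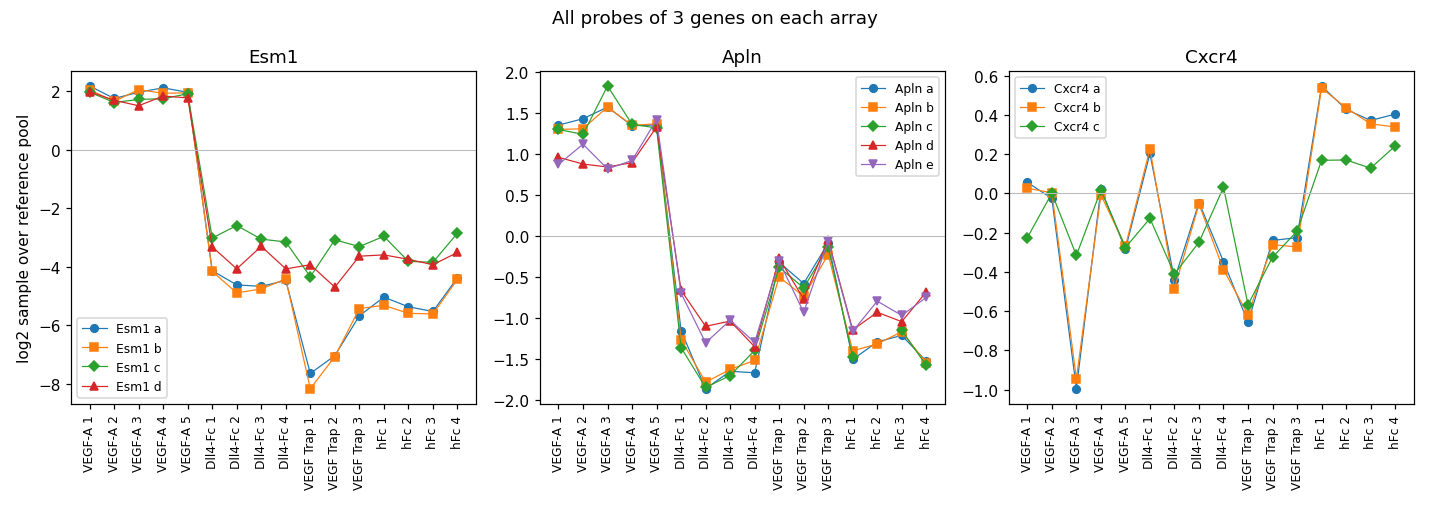
Log2 of sample over reference pool (y axis) for every probe of Esm1, Apln and Cxcr4 on each array (x axis), with a line and marker for each probe. The probes of Esm1 agree within the VEGF-A group and spread outside it, Apln d and e run closer to 0 than Apln a to c, and Cxcr4 a and b coincide.

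Pdgfb encodes a growth factor chain that tip cells release to recruit pericytes. Pdgfb a read 1.16, 1.15, 0.87, 1.16 and 1.3 on VEGF-A arrays and −0.51, −0.66, −0.63 and −0.99 on Dll4-Fc arrays. It read −1.60 and −1.73 on the measured VEGF Trap arrays and −0.91, −0.91 and −0.93 on the measured hFc arrays, with the spots of VEGF Trap 3 and hFc 2 left out as outliers. Again the VEGF-A arrays lay above all others and the VEGF Trap arrays below all others, with Dll4-Fc overlapping hFc. Pdgfb a rose by 2.04 ± 0.11 (4.12-fold) after VEGF-A (adjusted p = 5.20e-08) and fell by 0.75 ± 0.14 on the log2 scale after VEGF Trap (adjusted p = 0.0199). After Dll4-Fc the value was 0.22 ± 0.12 (adjusted p = 0.513). The other probe, Pdgfb b, was not well above background on any array and was not tested.

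Stc1 encodes stanniocalcin, a secreted glycoprotein hormone. On the VEGF-A arrays Stc1 a read 0.22, 0.23, 0.33, 0.19 and 0.70, and on the Dll4-Fc arrays −0.22, −0.79, −0.23 and −0.17. The VEGF Trap arrays read 0.48, 0.15 and 0.68, and the hFc arrays −0.70, −0.03, −0.28 and −0.64. VEGF-A and VEGF Trap arrays overlapped each other and lay above all hFc arrays. Stc1 a rose by 0.74 ± 0.17 after VEGF-A (adjusted p = 0.0121) and by 0.84 ± 0.20 after VEGF Trap (adjusted p = 0.0370). The call of Stc1 a after VEGF Trap was lost in 8 of 18 alternatives, with an adjusted p of up to 0.184, among them the fits without VEGF Trap 1 or VEGF Trap 3. Stc1 b rose by 0.99 ± 0.17 after VEGF-A and read 0.56 after VEGF Trap (adjusted p = 0.139). VEGF-A against VEGF Trap gave −0.10 for Stc1 a, with a 95% interval of −0.50 to 0.30, and 0.44 for Stc1 b, with an interval of 0.04 to 0.84 that is not adjusted for the number of probes. Neither was called (adjusted p = 0.127 for Stc1 b), and the groups overlapped on both probes.

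Aplnr encodes the apelin receptor, a G protein-coupled receptor that in the retina is mostly venous and on stalk endothelium. Aplnr a had no value on hFc arrays, since its spot was marked as an outlier on all 4 of them. It read −1.44, −1.25, −1.30, −1.19 and −1.36 on VEGF-A arrays, 0.65, 0.88, 0.80 and 0.48 on Dll4-Fc arrays and −0.56, −0.34 and −0.56 on VEGF Trap arrays. These 3 groups did not overlap, with VEGF-A the lowest and Dll4-Fc the highest. Aplnr a was 2.01 ± 0.10 higher after Dll4-Fc than after VEGF-A (adjusted p = 3.91e-08) and 0.82 ± 0.10 lower after VEGF-A than after VEGF Trap, a log2 change of −0.82 (adjusted p = 0.000191).

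With hFc, Aplnr could be compared on the dimmer probe Aplnr b. It read −1.03, −0.67, −0.83, −0.72 and −0.52 on VEGF-A arrays and 0.62, 0.34, 0.57 and 0.09 on Dll4-Fc arrays. On the VEGF Trap arrays it read −0.36, −0.76 and −0.35, and on the hFc arrays 0.06, 0.19, 0.18 and 0.37. Both VEGF-A and VEGF Trap arrays lay below all hFc arrays, and Dll4-Fc overlapped hFc. Aplnr b fell by 0.96 ± 0.13 on the log2 scale after VEGF-A (adjusted p = 0.000142) and by 0.69 ± 0.15 after VEGF Trap (adjusted p = 0.0269). The call after VEGF Trap was lost in 11 of 18 alternatives, with an adjusted p of up to 0.329, among them each fit that left out 1 VEGF Trap array. With the outlier spots kept, Aplnr a gave −1.58 after VEGF-A, 0.43 after Dll4-Fc (adjusted p = 0.0166) and −0.76 after VEGF Trap. After VEGF-A the ligand rose and its receptor fell. Between VEGF-A and VEGF Trap, Aplnr b did not pass the test, at −0.27 (adjusted p = 0.231), unlike Aplnr a.

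Cxcr4 encodes a chemokine receptor, the receptor of Cxcl12, which tip cells of the retina express. Cxcr4 a read 0.06, −0.03, −0.99, 0.02 and −0.28 on VEGF-A arrays and 0.20, −0.44, −0.05 and −0.35 on Dll4-Fc arrays. It read −0.66, −0.24 and −0.23 on VEGF Trap arrays and 0.55, 0.43, 0.37 and 0.40 on hFc arrays. All 12 treated arrays lay below the hFc arrays, which were all on slide 1, and the 3 treated groups overlapped each other. VEGF-A 3 read lowest. Cxcr4 a fell by 0.68 ± 0.20 on the log2 scale after VEGF-A (adjusted p = 0.0429) and Cxcr4 b by 0.65, with Cxcr4 c at −0.34 (adjusted p = 0.0629). The call of Cxcr4 a was lost in 10 of 20 alternatives, over which its adjusted p ranged from 0.0285 to 0.171, among them each fit that left out 1 hFc array. After VEGF Trap Cxcr4 c fell by 0.54 (adjusted p = 0.0306), with Cxcr4 a at −0.81 (0.0699). That call of Cxcr4 c was lost in 11 of 18 alternatives, with an adjusted p of up to 0.463, among them each fit that left out 1 hFc array. Cxcl12 itself rose by 1.14 after VEGF-A (adjusted p = 5.07e-06).

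Kcne3 encodes a small subunit of potassium channels. On VEGF-A arrays Kcne3 a read 1.64, 1.78, 1.80, 1.88 and 1.87, and on Dll4-Fc arrays −1.43, −1.59, −1.74 and −2.26. On VEGF Trap arrays it read −5.33, −5.13 and −4.54, and on hFc arrays −2.56, −3.09, −2.84 and −3.08. No groups overlapped, and the order from high to low was VEGF-A, Dll4-Fc, hFc and VEGF Trap. Each neighbouring pair in that order differed past the threshold, which held for no other leading probe with values in all 4 groups.

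Kcne3 a rose by 4.68 ± 0.18 (25.7-fold) after VEGF-A (adjusted p = 1.76e-10) and by 1.14 ± 0.19 after Dll4-Fc (adjusted p = 0.00169). It fell by 2.11 ± 0.20 on the log2 scale after VEGF Trap (adjusted p = 0.000149). Kcne3 b and c gave 4.54 and 4.64 after VEGF-A, 1.02 and 1.13 after Dll4-Fc, and −2.05 and −2.09 after VEGF Trap, all called. In scanner units the Cy3 processed signal of Kcne3 a was 6120 to 7679 on VEGF-A arrays, 410 to 588 on Dll4-Fc arrays, 57.8 to 111 on VEGF Trap arrays and 162 to 237 on hFc arrays.

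**Figure D3:**
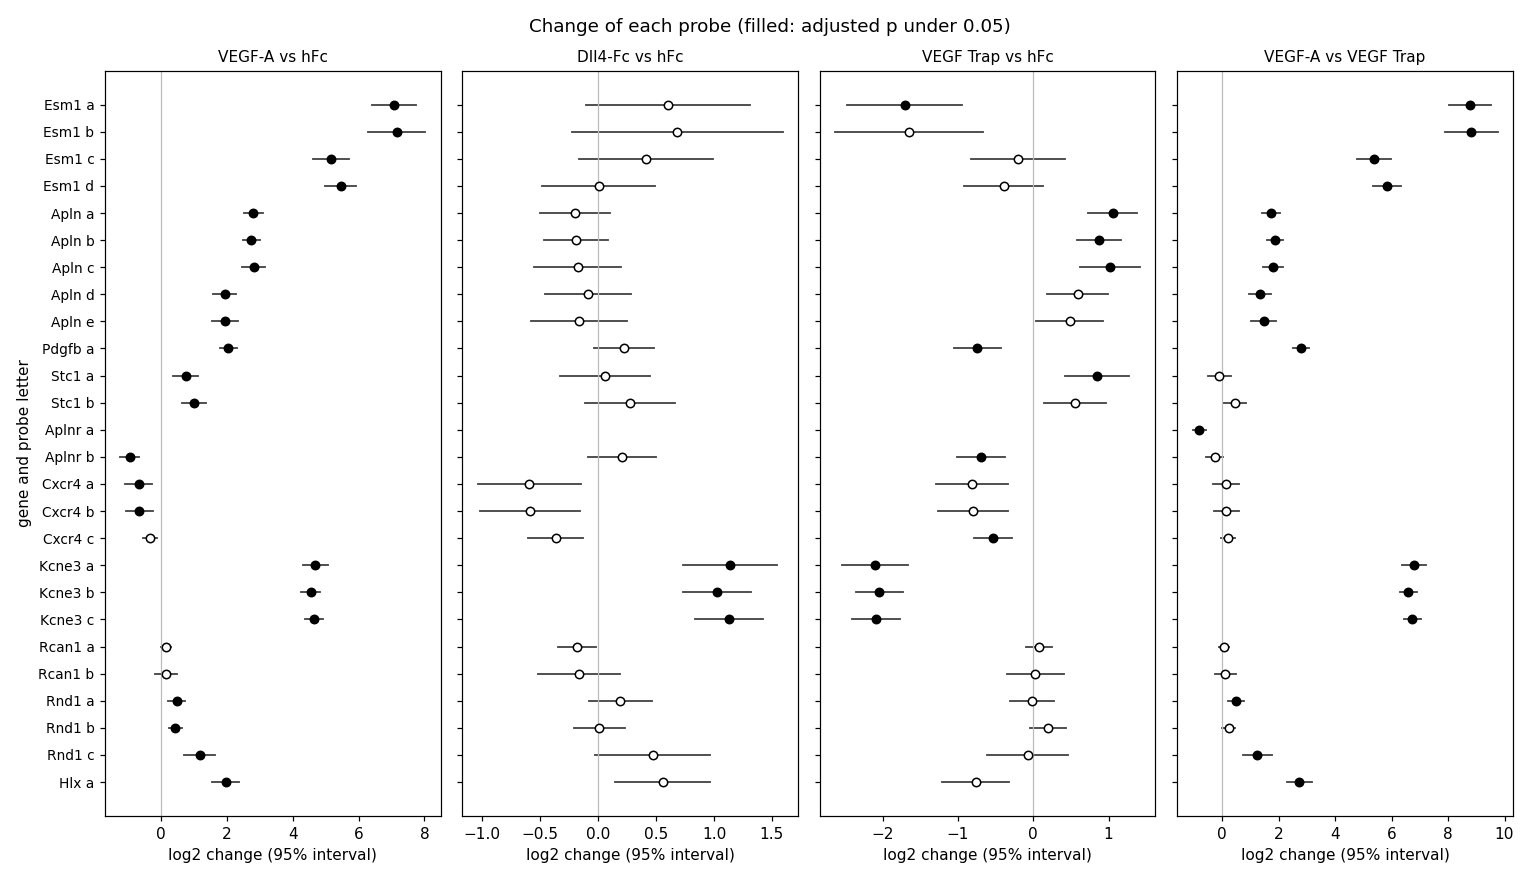
Log2 change (x axis, own scale in each panel) of the 26 tested member probes (y axis) in the 3 comparisons with hFc and in VEGF-A against VEGF Trap, with 95% intervals. Filled points have an adjusted p under 0.05. The 3 probes of Kcne3 are the only filled points for Dll4-Fc, and the probes of Apln lie right of 0 for both VEGF-A and VEGF Trap.

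Rcan1 encodes an inhibitor of the phosphatase calcineurin and is known as an early VEGF-A target in cultured endothelial cells. Rcan1 a read 0.16, 0.12, 0.28, 0.12 and 0.17 on VEGF-A arrays, −0.09, −0.21, −0.05 and −0.27 on Dll4-Fc arrays, 0.18, −0.01 and 0.13 on VEGF Trap arrays and −0.09, 0.02, 0.11 and 0.08 on hFc arrays. All 5 VEGF-A arrays lay above the 4 hFc arrays by a small step. The change after VEGF-A, 0.14 ± 0.07 (adjusted p = 0.273), did not pass the test, and its 95% interval was −0.01 to 0.30. Rcan1 b read 0.14 (adjusted p = 0.660). Rcan1 a passed in 1 comparison, Dll4-Fc against VEGF-A, where it was lower after Dll4-Fc by 0.33 ± 0.07 on the log2 scale (adjusted p = 0.00644).

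Rcan1 has an inner transcript start that is known for sites of NFAT, the factors that calcineurin activates. In the RefSeq table, the 250 bases before the start at chr16:92400079-92400328 held the letters GGAAA 3 times on either strand. Those before the other start, chr16:92466170-92466419, held them 0 times, and 55.6% of all promoters held at least 1. Which transcript the probes of Rcan1 read was not analysed here.

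Rnd1 encodes a small GTPase that loosens the actin skeleton. Rnd1 a read 0.16, −0.02, 0.64, 0.50 and 0.32 on VEGF-A arrays and 0.00, 0.02, 0.01 and 0.13 on Dll4-Fc arrays. It read −0.28, 0.04 and −0.27 on VEGF Trap arrays and −0.07, −0.24, −0.01 and −0.28 on hFc arrays. The lowest VEGF-A array, VEGF-A 2, lay within the hFc range. Rnd1 a rose by 0.47 ± 0.12 (adjusted p = 0.0244), Rnd1 b by 0.44 and the dim Rnd1 c by 1.17 after VEGF-A. None of the 3 probes was called after Dll4-Fc or VEGF Trap. The call of Rnd1 a after VEGF-A was lost in 7 of 20 alternatives. Among them were normexp with loess and the fits without hFc 2, hFc 4 or VEGF-A 4. With VEGF-A arrays of slide 3 alone, Rnd1 a read 0.22 (adjusted p = 0.284).

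Hlx encodes a homeobox transcription factor that VEGF-A induces in endothelial cells. Hlx a, its sole probe, read 1.13, 1.16, 0.95 and 1.12 on the measured VEGF-A arrays, with VEGF-A 5 left out as an outlier, and 0.14, −0.83, −0.08 and −0.51 on Dll4-Fc arrays. It read −1.65, −1.69 and −1.59 on VEGF Trap arrays and −0.96, −1.03, −1.12 and −0.40 on hFc arrays. The VEGF-A arrays were the highest and the VEGF Trap arrays the lowest, both clear of hFc. Hlx rose by 1.97 ± 0.19 (3.91-fold) after VEGF-A (adjusted p = 6.75e-06). After VEGF Trap it read −0.77 ± 0.21 (adjusted p = 0.0679) and after Dll4-Fc 0.56 ± 0.19 (adjusted p = 0.182), neither called.

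After Dll4-Fc, 3 of 25 tested member probes rose against hFc, all of Kcne3, and none fell, beside 4.02% of all probes called (2.65% up and 1.37% down). From the Cy3 channel alone 3 rose and 1 fell, Cxcr4 c by 0.62 (adjusted p = 0.0283), which read −0.37 (adjusted p = 0.102) in the ratios. After VEGF Trap, 4 rose and 7 fell, beside 2.69% of all probes called (0.903% up and 1.79% down). Those that rose were Apln a, b and c and Stc1 a, and those that fell were the 3 probes of Kcne3, Esm1 a, Pdgfb a, Aplnr b and Cxcr4 c. Groups did not overlap for 7 member probes after Dll4-Fc (11% of all probes) and for 15 after VEGF Trap (23.7%). The calls of Kcne3 a, b and c and of Apln a and b after VEGF Trap held in every alternative run, and each of the other 6 was lost in at least 1. Without VEGF Trap 1, 5 member probes were called in either direction, and without hFc 3 or hFc 4, 7 were.

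VEGF-A and VEGF Trap shared slides, so this comparison does not rest on slides of their own. Of 26 tested member probes, 16 were higher after VEGF-A than after VEGF Trap and 1 was lower, beside 16.9% of all 39788 probes called (9.76% up and 7.11% down). Groups did not overlap for 17, against 24% of all probes. Esm1 a was 8.78 ± 0.34 higher, Kcne3 a 6.79 ± 0.19, Pdgfb a 2.79 ± 0.13, Hlx a 2.73 ± 0.21, Apln a 1.74 ± 0.15 and Rnd1 a 0.49 ± 0.13, all called. Of these, Rnd1 a lost its call in 5 of 20 alternatives. Aplnr a was the probe that was lower. Cxcr4 a, Rcan1 a and Stc1 a did not pass, at 0.13, 0.07 and −0.10.

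With slide as a fixed block, the values were 8.61 for Esm1 a, 6.70 for Kcne3 a, 2.82 for Pdgfb a, 2.74 for Hlx a, 1.70 for Apln a, 0.43 for Rnd1 a and −0.82 for Aplnr a, all called. Within slide 3, with 2 arrays of each group, the difference was 9.31 for Esm1 a, 6.94 for Kcne3 a, 1.84 for Apln a and −0.89 for Aplnr a. Within slide 4, with 3 VEGF-A arrays and 1 VEGF Trap array, it was 7.69 for Esm1 a, 6.38 for Kcne3 a, 1.51 for Apln a and −0.72 for Aplnr a. Each of these kept its direction on both slides. Cxcr4 a did not, at 0.46 on slide 3 and −0.19 on slide 4. Rnd1 a differed by 0.19 on slide 3 and by 0.75 on slide 4. Pdgfb a had no VEGF Trap value on slide 4.

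**Figure D4:**
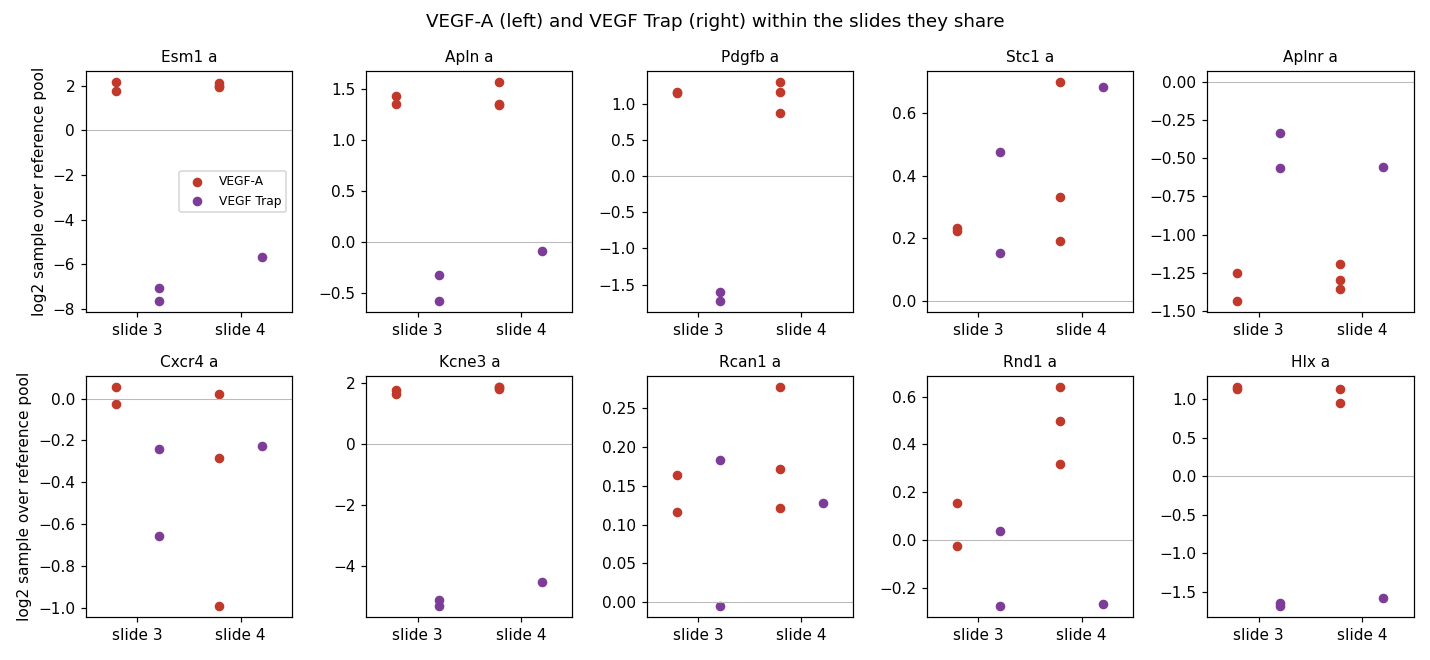
Log2 of sample over reference pool (y axis, own scale in each panel) of the leading probe of each gene on the slides that VEGF-A and VEGF Trap share (x axis), with a point for each array. Slide 3 has 2 arrays of each group, slide 4 has 3 of VEGF-A and 1 of VEGF Trap, and Esm1, Kcne3, Apln and Hlx separate on both slides.

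Dll4-Fc against VEGF-A, at unequal doses and on separate slides, gave 18 member probes that were lower after Dll4-Fc and 2, both of Aplnr, that were higher, of 26 tested. The share of all probes called was 12.1% (5.42% up and 6.71% down). On the log2 scale Esm1 a fell by 6.47, Kcne3 a fell by 3.55 and Apln a fell by 3.0. Dll4-Fc against VEGF Trap, also on separate slides and with no dose stated for VEGF Trap, gave 9 higher and 5 lower member probes. Beside them, 12% of all probes were called (7.17% up and 4.82% down). Kcne3 a was 3.24 higher after Dll4-Fc than after VEGF Trap, Esm1 a 2.31, Hlx a 1.32, Aplnr a 1.19 and Pdgfb a 0.97. The probes of Esm1 were not alike here. With outlier spots kept, Esm1 b read 2.33 and was called, while Esm1 c and d read 0.62 and 0.40. Neither Esm1 c nor Esm1 d was called in the main fit or in any alternative. Apln a was lower after Dll4-Fc in the same comparison, at −1.26 (adjusted p = 8.14e-05), as was Stc1 a, at −0.79 (adjusted p = 0.0178). The call of Stc1 a was lost in 5 of 18 alternatives. Stc1 b was not called, with an adjusted p of at least 0.219 over the alternatives.

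Other genes of the sprouting programme were read on their leading probes. Their lists were also chosen with earlier results of these data known, so the counts describe these lists alone. Of 22 other tip cell and sprouting genes, 17 rose and 1 fell after VEGF-A, with a median log2 change of 1.27, against −0.05 over all genes, of which 5.68% rose and 3.78% fell. Among them Plaur, the urokinase receptor, rose by 4.3, Mcam, a cell adhesion molecule, by 2.41 and Dll4 by 2.03. After Dll4-Fc 3 of the 22 rose, Dll4 by 0.44, Nid2 by 0.66 and Robo4 by 0.33, with a median of 0.10, beside 2.92% up and 1.43% down over all genes. After VEGF Trap 0 rose and 6 fell, beside 1.01% up and 1.89% down over all genes, with a median of −0.34, among them Dll4 by 0.76, Lama4, a laminin chain, by 0.72 and Plaur by 1.11. Of 19 other VEGF-responsive endothelial genes, 9 rose and 1 fell after VEGF-A, among them the protease genes Plau (3.44) and Adamts1 (2.51). After Dll4-Fc 4 of these 19 rose and 1 fell, and after VEGF Trap 1 fell.

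Partners and relatives of the members were read the same way. Over all genes, 5.68% rose and 3.78% fell after VEGF-A, 2.92% and 1.43% after Dll4-Fc, and 1.01% and 1.89% after VEGF Trap. Of 7 ligand or receptor partners tested, 3 rose after VEGF-A, namely Cxcl12, the other Cxcl12 receptor Ackr3 (0.96) and Pdgfa (0.52). Of 8 paralogues, 0 rose and 4 fell after VEGF-A, with Kcne1 at −1.15, Kcne4 at −0.95 and Rnd2 at −0.49 the lowest in adjusted p. Stc2 rose by 1.01 after VEGF Trap (adjusted p = 0.00438). Of 4 calcineurin genes, only Nfatc1, an NFAT factor, was called, and rose by 0.55 after VEGF-A and by 0.62 after Dll4-Fc. The other 3 were not called in either comparison, and the medians of the list were −0.17 and −0.11.

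Endothelial markers moved with these comparisons. Beside them, 5.68% of all genes rose and 3.78% fell after VEGF-A. The shares were 2.92% and 1.43% after Dll4-Fc, and 1.01% and 1.89% after VEGF Trap. Of 18 pan-endothelial markers, 14 rose and 1 fell after VEGF-A, with a median of 1.12. After Dll4-Fc 6 rose, with a median of 0.27, and after VEGF Trap 15 fell, with a median of −0.66. Averaged over the 14 markers measured on every array, the level was 0.55 to 0.73 on VEGF-A arrays, −0.15 to 0.02 on Dll4-Fc arrays, −1.08 to −0.95 on VEGF Trap arrays and −0.43 to −0.30 on hFc arrays. In whole retina, fewer endothelial cells and less RNA per cell cannot be told apart, and the part of endothelial content in the changes of the members was not tested. Aplnr and Cxcr4, which were called lower after VEGF-A while these markers rose, were the 2 members that went against them in that comparison. For Cxcr4 a that call was lost in 10 of 20 alternatives, and Cxcr4 c was not called. After VEGF Trap, where the endothelial markers fell, Apln a and Stc1 a rose. For Stc1 a that call was lost in 8 of 18 alternatives, and Stc1 b was not called.

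For the counts of other cell markers, the shares over all genes were 5.68% up and 3.78% down after VEGF-A. They were 2.92% and 1.43% after Dll4-Fc, and 1.01% and 1.89% after VEGF Trap. After VEGF-A, 1 of 11 microglia markers rose and none fell, and 0 of 6 neutrophil markers passed the test. After Dll4-Fc 9 of 11 microglia markers rose and 1 fell, with a median of 0.77, and the mean of the 8 measured on every array was 0.41 to 0.63 on Dll4-Fc arrays against −0.37 to −0.10 on hFc arrays. Of 9 mural markers, 2 rose and 4 fell after VEGF-A, with Des at 1.85, Cspg4 at 1.61 and Kcnj8 at −2.13. After VEGF Trap 4 of 9 mural markers fell, and 0 rose. Of 4 astrocyte markers 2 rose after VEGF-A, Gfap by 2.36 and Aldh1l1 by 0.51, and of 8 ganglion cell markers 1 fell. The part of these cells in the changes of the members was not tested.

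The genes whose pattern over the arrays lay nearest to each member were found by the root mean square difference of log2 values, each centred on its mean, over at least 14 of 16 arrays. For Kcne3 they were Plaur (0.60) and Tfpi2 (0.87), for Esm1 Dmp1 (1.25) and Mmp3 (1.4), and for Apln Fosl1 (0.45) and Edn1 (0.46). Hlx lay nearest to Tnfrsf11b (0.22) and Dll4 (0.24), and Pdgfb to Lama4 (0.15) and Des (0.15). Des is 1 of the 9 mural markers, of which 2 rose and 4 fell after VEGF-A. Stc1 lay nearest to Rap1b (0.25) and Lactb2 (0.26), and Cxcr4 to Slc27a2 (0.21) and Gal3st4 (0.23). Rcan1 and Rnd1, which varied little, lay nearest to Thoc5 and Sptlc1 (0.07 each) and to Pmvk (0.09) and Arc (0.10). Aplnr a had values on 12 arrays, too few for this comparison.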

How the data were processed

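RNA of 16 retina samples was hybridised on 2-colour Agilent arrays, sample in Cy3 and a pool of all samples in Cy5. The deposited scanner files were made by the authors with Agilent Feature Extraction 9.5.1.1, per the submitters' processing notes. They hold mean and background signal intensity per spot, processed signal intensity after background subtraction and dye normalization, and flags, per the file headers. The log10 ratio of Cy5 over Cy3 was used as deposited and turned to log2 of sample over pool. The value table deposited by the authors, not described in the labels, matched natural log ratios of sample over pool (correlation with the scanner ratios of at least 0.999 on each array) and had 25.1 to 27.5% empty cells, so it served as an alternative. Its array medians lay from −0.0084 to 0.031 on the log2 scale, and whether its genes were centred further is not stated.

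Control spots and outlier spots were left out, spots of a probe were averaged (43537 spots, 43426 probes), and a probe was tested where its Cy3 signal was well above background on 3 arrays or more (39788, of which 38887 had hFc values). Probes took current RefSeq symbols by accession (25748), symbol (7205) or older symbol (3287), and 7186 kept the name in the files. The 4 groups were fitted together in limma 3.58.1 (R 4.3.3, statmod 1.5.0), 2-sided, with Benjamini-Hochberg adjustment over all probes of a comparison and a threshold of 0.05. All adjusted p-values are from that limma fit or from its alternatives. The number of arrays limits the precision, with 12 residual degrees of freedom. The fit was tested on simulated data with known changes.

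The text names all member probes, up to 3 called genes of smallest adjusted p in each other list and comparison, and the 2 nearest patterns for each member. Other genes named were chosen after their values were seen. The members and lists were chosen with earlier results of these data known. The alternatives were normexp with loess (offset 50), outlier spots kept, other filters on dim probes, Cy3 alone scaled to its 75th percentile, the deposited value table, slide as a block or single slides, hFc 1 and 2 averaged, the compared groups alone, and each array left out. The array titles hold codes whose meaning is not stated, and hFc 1 and hFc 2 share part of theirs, as do VEGF-A 4 and VEGF Trap 3.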

Additional observations from a re-analysis of the deposited data

Results flagged for a closer look

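Among 78 groups of 4 or 5 arrays, each for 1 member probe, 8 held an array far from the others of its group, where chance alone would flag about 1 in 20 groups. The 78 include the groups of Pdgfb b, whose values were equal on all arrays and could not be flagged. Probes of 1 gene are also not independent, so the 2 shares are only roughly comparable. VEGF-A 3 was the high array for Apln b, at 1.58, and for Apln c, at 1.83, against 1.37 and 1.36 on the nearest arrays. The same array was the low one for Hlx a, at 0.95. VEGF-A 5 was high for Apln d, at 1.33, and for Stc1 a, at 0.70. Dll4-Fc 4 was high for Rnd1 a, at 0.13, and Dll4-Fc 2 low for Stc1 a, at −0.79. For Rcan1 b, hFc 1 was low, at −0.43, against 0.15 on the nearest hFc array.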

How the results depend on the processing

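No paired analysis was possible because the labels give no replicate numbers shared between groups. No call of a member probe changed direction under any alternative run, and of the values of single probes 2710 kept their side of the threshold, 110 lost the call and 36 gained it. Member probes called ranged, with each array left out in turn, from 19 to 22 for VEGF-A against hFc, 3 to 4 for Dll4-Fc against hFc, 5 to 9 for VEGF Trap against hFc, 19 to 21 for Dll4-Fc against VEGF-A, 12 to 16 for Dll4-Fc against VEGF Trap and 16 to 18 for VEGF-A against VEGF Trap. All probes called ranged from 2654 to 3593, 1246 to 1479, 259 to 933, 3851 to 4965, 2205 to 4760 and 4173 to 6609 in the same order. VEGF Trap against hFc, with 1046 probes called, gave 651, 426, 442 and 607 without hFc 1, 2, 3 and 4, and 259 and 469 without VEGF Trap 1 and 3. It gave 2503 with normexp and loess (849 up and 1654 down), 388 from Cy3 alone, 539 with hFc 1 and 2 averaged and 556 with the 2 groups alone (295 up and 261 down). With only the slide 4 arrays of VEGF-A and VEGF Trap, it gave 245, with 5 member probes. Slide 4 holds 1 VEGF Trap array, which is assumed in these fits to vary like the other groups. Dll4-Fc against VEGF Trap, with 4769 probes called, gave 2997 with the 2 groups alone, 1594 with slide 4 only (7 member probes), and 2205 and 2884 without VEGF Trap 1 and 3. VEGF-A against VEGF Trap, with 6714, gave 4183 with slide 3 only, 3311 with slide 4 only, and 4173 and 4426 without VEGF Trap 1 and 3. Slide 3 only moved the split of VEGF-A against hFc to 2044 up and 2220 down, against 2209 and 1285 with all arrays. The authors' value table, which tests fewer probes, gave 15 member probes up and 5 down in that comparison. The cause of these shifts was not tested, beyond the fewer arrays that single slides leave. The random slide block had an estimated correlation of −0.022. Dim spots limit the values of Esm1 c and d outside the VEGF-A group. Esm1 a and b read further below the pool on VEGF Trap arrays (means of −6.79 and −6.89) than on hFc arrays (−5.08 and −5.24). Whether dim spots limit Esm1 a and b there was not tested. Esm1 a and b also spread widely over the VEGF Trap arrays, with standard deviations of 1.01 and 1.38 on the log2 scale.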
